A study of Mus musculus with 12 samples.

Results

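Direct transcriptional targets of p53 that act in cell-cycle arrest and cell death were examined in 4 tissues of untreated mice. The 10 genes were Cdkn1a, Ccng1, Phlda3, Zmat3, Sesn1, Sesn2, Perp, Trp53inp1, Pmaip1 and Bbc3, and all 10 were among the 18193 genes measured. Each was read from its probe set of highest mean signal over the 12 arrays. The arrays covered thymus, heart, lung and liver of p53KO (p53-/-), p66KO (lacking p66, the long Shc1 isoform) and wild type (WT) mice, all Sv/129 and 2 months old, without treatment. Each tissue and genotype had 1 array, hybridised with RNA pooled from 4 mice, so the spread between mice was not measured and no test was possible within a tissue. Signals are log2 values, and a difference of 1 is 2-fold.

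p53 is a transcription factor that is kept scarce in unstressed cells by its target Mdm2 and is stabilised by DNA damage, oxidative and other stress. It binds a DNA element made of paired half-sites and switches on inhibitors of cyclin-dependent kinases, growth-restraining regulators and BH3-only proteins, which open mitochondria to cytochrome c release. Some targets keep a p53-dependent level without added stress, which a p53KO tissue set against its WT counterpart can show.

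RefSeq promoter windows (GRCm38.p6, 250 bases before to 50 bases after each annotated start) were held for 6 of the 10 genes, 10 windows in all. They were searched on both strands for the p53 half-site consensus, which reads the same on either strand. Cdkn1a, Ccng1 and Sesn1 had at least 1 exact half-site, as had 8.36% of all 32851 windows. A tandem pair of half-sites without a gap was sought, allowing 1 mismatch over its 20 bases. It was found in a Cdkn1a window, in the Ccng1 window and in 0.0883% of all windows. For these 2 genes the part of that window before the start is shown, with the tandem pair in capitals. They are the target used most often as a readout of p53 and the one with the lowest p in p53KO mice below.
Cdkn1a, chr17:29090729-29090978, plus strand: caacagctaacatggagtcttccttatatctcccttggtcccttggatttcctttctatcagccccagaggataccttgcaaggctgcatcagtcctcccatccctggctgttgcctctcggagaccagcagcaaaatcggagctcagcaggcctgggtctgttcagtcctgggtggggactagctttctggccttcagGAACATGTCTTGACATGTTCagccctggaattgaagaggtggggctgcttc
Ccng1, chr11:40755287-40755536, minus strand: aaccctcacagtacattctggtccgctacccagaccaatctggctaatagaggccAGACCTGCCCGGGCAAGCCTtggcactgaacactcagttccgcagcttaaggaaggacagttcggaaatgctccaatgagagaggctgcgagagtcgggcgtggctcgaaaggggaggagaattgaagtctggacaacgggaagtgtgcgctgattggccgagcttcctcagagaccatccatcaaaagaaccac
The Cdkn1a pair began at position −51 and the Ccng1 pair at position −195 from the annotated start of these transcripts. Another Cdkn1a window, of a start further downstream (chr17:29093519-29093818), had 0 half-sites and no tandem pair. Sesn1 had a single half-site at position −173 in 1 window and 0 in another. A match is a string of letters, and binding was not measured here.

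Some arrays stood apart. The WT thymus array correlated with the p53KO and p66KO thymus arrays at r = 0.928 and 0.924, against 0.982 between the knock-outs. Its 17 measured salivary gland markers had a median signal of 14.24, against 5.43 in the p53KO and 5.63 in the p66KO thymus. Cell-division genes (19 measured) were at a median of at least 9.95 in both knock-out thymus arrays and 7.33 in the WT thymus. Salivary gland markers were also higher on the WT heart array, with medians of 5.90 in p53KO, 6.54 in p66KO and 7.32 in WT heart, and 11 of the 17 were 2-fold or more lower in p53KO than in WT. Of 11 hepatocyte markers, 7 were 2-fold or more lower in p53KO than in WT heart. The p53KO thymus also had skeletal muscle markers at a median of 9.67, against 6.57 and 6.67 in the p66KO and WT thymus. In the lung, 11 hepatocyte markers had a median of 6.48 in p53KO, 9.31 in p66KO and 10.78 in WT. The 3′ minus 5′ signal of the Gapdh control, a measure of RNA integrity, was 0.66 in p53KO, 1.32 in p66KO and 2.29 in WT lung. The 18S control signal was 9.79 in p53KO, 5.94 in p66KO and 5.52 in WT lung. In thymus it was 10.3 in p53KO, 5.97 in p66KO and 10.86 in WT. It spread less in heart (9.0 to 9.6) and liver (6.1 to 6.6). The tissues otherwise bore out their labels, with each tissue's own marker list highest in that tissue. Heat shock genes differed as well. Hspa1b was lower than WT on all knock-out arrays, with 7.86 in p53KO, 9.81 in p66KO and 12.22 in WT lung. In heart it had 7.21 in p53KO, 7.63 in p66KO and 10.58 in WT. Hspa1a was also lower in both knock-outs of each tissue, and Dnajb1 and Hsph1 in heart, lung and liver. In thymus Dnajb1 was above WT in both, and Hsph1 lay from 9.71 to 10.08. The part of this in the target differences was not tested. Shc1 had signals of 9.14 to 9.83 on p66KO arrays and 8.57 to 9.09 on WT arrays. It does not check the p66 genotype, since the other Shc1 isoforms are kept.

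**Figure D1:**
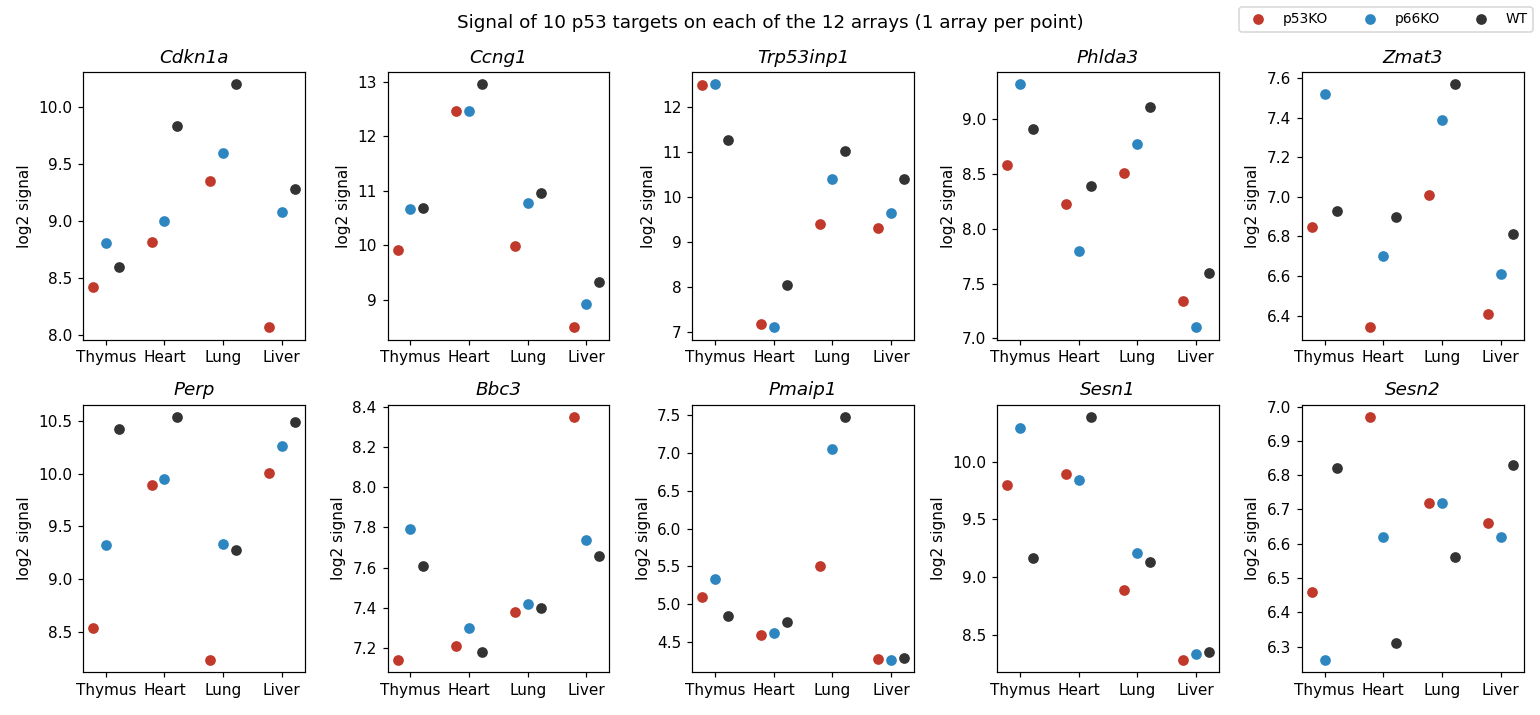
Log2 signal (vertical axis, a separate range for each gene) of the 10 targets by tissue, with p53KO, p66KO and WT from left to right and 1 array per point. The p53KO array is the lowest of the 3 for 9 of 10 targets in lung, 6 in liver, 6 in thymus and 4 in heart, as it is for 35.7% of all genes in lung, 35.5% in liver, 25.5% in thymus and 26.2% in heart.

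Cdkn1a, which encodes the cyclin-dependent kinase inhibitor p21, was lower in p53KO tissues outside the thymus. In liver its signal was 8.07 in p53KO, 9.08 in p66KO and 9.28 in WT. In lung it was 9.35 in p53KO, 9.60 in p66KO and 10.20 in WT. In heart it was 8.82 in p53KO, 9.0 in p66KO and 9.83 in WT. On the probe set used, the p53KO array was therefore the lowest in each of these tissues, and the p66KO array lay near WT only in liver. The second Cdkn1a probe set had 6.77 in p53KO, 7.38 in p66KO and 8.75 in WT liver. Its p66KO lung signal (7.67) lay below that of p53KO lung (7.76). The p53KO signal was 2.31-fold lower than WT in liver, 2.03-fold in heart and 1.80-fold in lung. In thymus the 3 arrays lay within 8.42 to 8.81, with p53KO lowest. The part of the salivary gland signal of the WT heart and thymus arrays in these differences was not tested. Fewer expressing cells and less RNA per cell cannot be told apart in any of these bulk samples.

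Ccng1 encodes cyclin G1, a partner of protein phosphatase 2A in p53 feedback. On the probe set used, it was lower than WT on all 4 p53KO arrays. It had signals of 9.91 in p53KO, 10.66 in p66KO and 10.68 in WT thymus. In lung the signals were 9.99 in p53KO, 10.77 in p66KO and 10.96 in WT. In these 2 tissues the p66KO array stayed close to WT and the p53KO array was apart. In liver the p66KO value lay between the others, at 8.49 in p53KO, 8.92 in p66KO and 9.33 in WT. In heart both knock-outs had 12.46, against 12.96 in WT. Across the tissues the p53KO arrays were thus 1.41-fold to 1.95-fold lower than WT on this probe set. The other 2 Ccng1 probe sets were higher in p53KO than in WT lung (0.30 and 0.35). Over the 4 tissues they averaged −0.29 and −0.23, against −0.77 on the probe set used.

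Phlda3, a pleckstrin-homology protein that holds back Akt, and Zmat3, an RNA-binding zinc finger protein that limits growth, differed less. Phlda3 had 8.58, 8.23, 8.51 and 7.34 in p53KO thymus, heart, lung and liver, against 8.91, 8.39, 9.11 and 7.60 in WT. Zmat3 had 6.85, 6.34, 7.01 and 6.41 in p53KO, against 6.93, 6.90, 7.57 and 6.81 in WT, in that tissue order. Both were below WT on every p53KO array, with log2 differences of −0.16 to −0.60 for Phlda3 and −0.08 to −0.56 for Zmat3. The p66KO thymus was above WT for both, at 9.32 for Phlda3 and 7.52 for Zmat3. In p66KO heart, lung and liver both were below WT as well. The differences there were −0.60, −0.34 and −0.50 for Phlda3 and −0.20, −0.18 and −0.20 for Zmat3. In heart and liver Phlda3 was thus lower in p66KO than in p53KO.

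The sestrins, stress-induced proteins that restrain mTORC1, had no common direction. Sesn1 had 9.80 in p53KO, 10.29 in p66KO and 9.17 in WT thymus, whereas in heart it had 9.89 in p53KO, 9.84 in p66KO and 10.39 in WT. On the probe set used its lung and liver arrays lay within 8.89 to 9.21 and 8.28 to 8.35, but its other 2 brighter probe sets were lower in p53KO than in WT lung, with differences of −1.96 and −0.84. Sesn2 lay between 6.26 and 6.97 on all 12 arrays. Its p53KO signal was above WT in heart and lung and below it in thymus and liver.

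Among the death-related targets, Perp had the largest difference of the 10 in thymus. It encodes a tetraspan membrane protein of desmosomes that takes part in p53-dependent apoptosis. In thymus its signal was 8.54 in p53KO, 9.32 in p66KO and 10.42 in WT. In lung it was 8.23 in p53KO, 9.33 in p66KO and 9.28 in WT. The p53KO lung was therefore 2.06-fold below WT while the p66KO lung was at the WT level. In thymus the p53KO array was 3.68-fold and the p66KO array 2.15-fold below WT. The gaps were smaller in heart (9.89 in p53KO, 9.95 in p66KO and 10.54 in WT) and liver (10.01 in p53KO, 10.26 in p66KO and 10.49 in WT). Beside the thymus values, 16 epithelial markers were at a median of 8.64 in p53KO, 9.19 in p66KO and 9.45 in WT, and 6 of them were 2-fold or more lower in p53KO than in WT. Another 2 were 2-fold or more higher, the basal keratin genes Krt5 (by 1.73) and Krt14 (by 1.16). The part of the epithelial and salivary signal in the Perp difference was not tested.

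Trp53inp1, whose product promotes apoptosis and autophagy, ran in opposite directions in different tissues on the probe set used. In lung it had 9.40 in p53KO, 10.41 in p66KO and 11.04 in WT. In liver it had 9.31 in p53KO, 9.66 in p66KO and 10.41 in WT. The p53KO signal was thus 3.11-fold below WT in lung and 2.14-fold in liver. In heart both knock-outs were lower, at 7.18 in p53KO, 7.11 in p66KO and 8.06 in WT. In thymus both were higher, at 12.50 in p53KO, 12.52 in p66KO and 11.28 in WT. The 13 thymocyte markers were higher there as well, with median signals of 11.15 in p53KO, 11.44 in p66KO and 10.12 in WT, and their part in the thymus difference was not tested.

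Pmaip1, which encodes the BH3-only protein Noxa, differed 2-fold between genotypes in lung alone. It had 5.51 in p53KO, 7.06 in p66KO and 7.48 in WT lung, 3.92-fold lower in p53KO than in WT. In the other tissues its 9 arrays lay within 4.26 to 5.33, and the difference between p53KO and WT was at most 0.26. Those signals are low, below the array means (6.55 to 6.60), with 3.26 the lowest value on any array. A lower p53KO level could be missed there, so these arrays do not show that p53 dependence is limited to lung. The part of hepatocyte content and of RNA integrity, which differed between the lung arrays, was not tested.

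Bbc3, which encodes the BH3-only protein Puma, had no p53KO signal clearly below WT outside the thymus. It had 8.35 in p53KO, 7.74 in p66KO and 7.66 in WT liver, so that the p53KO liver was the highest of its 12 arrays. In thymus it had 7.14 in p53KO, 7.79 in p66KO and 7.61 in WT. Heart (7.18 to 7.30) and lung (7.38 to 7.42) showed almost no spread between genotypes.

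**Figure D2:**
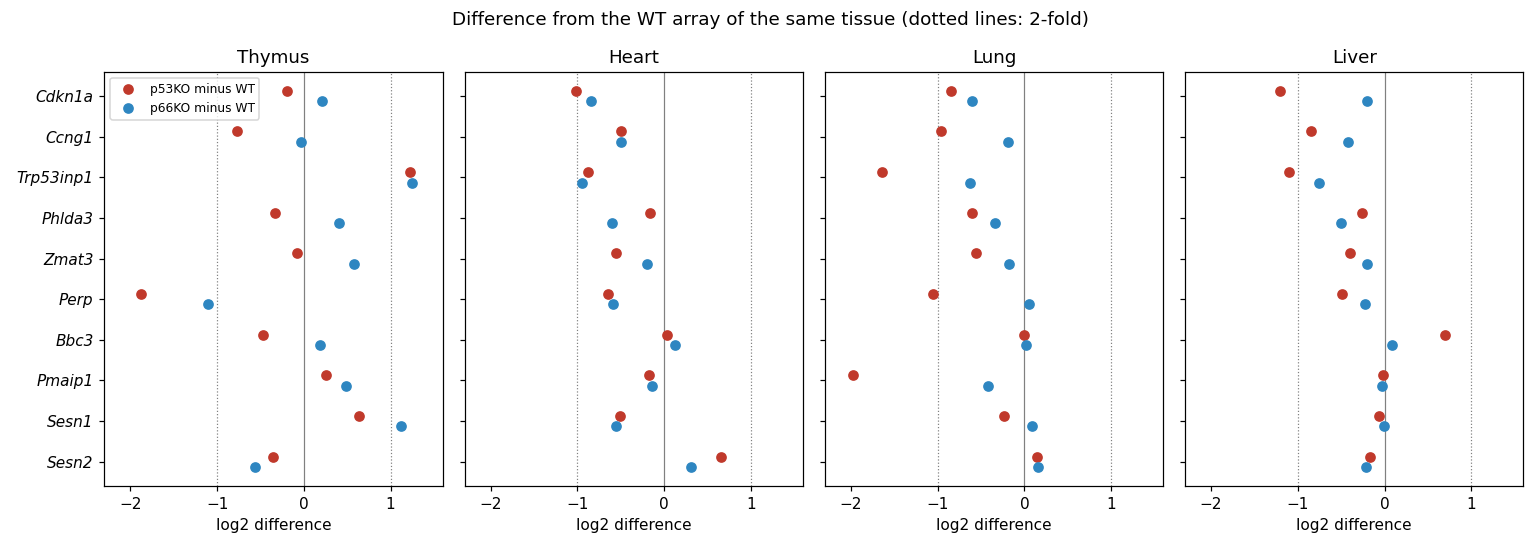
Log2 difference of the p53KO and p66KO arrays from the WT array of the same tissue (horizontal axis) for the 10 targets, 1 panel per tissue. Dotted lines mark 2-fold. On the probe sets used, Pmaip1, Trp53inp1 and Perp pass it on the p53KO lung array, where 4.14% of all genes were that much lower. No target does so on the p66KO lung array, where only 0.313% of all genes were that much lower and 0.341% higher.

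Counted by tissue, the targets 2-fold or more below WT on p53KO arrays numbered 3 of 10 in lung (Pmaip1, Trp53inp1 and Perp), where 4.14% of all genes were that much lower. In liver they numbered 2 (Cdkn1a and Trp53inp1) against 0.418% of all genes, in heart 1 (Cdkn1a) against 2.08%, and in thymus 1 (Perp) against 4.81%. Trp53inp1 alone was 2-fold or more higher in p53KO thymus, where 8.89% of all genes were. In p53KO heart, lung and liver 0 targets were 2-fold higher than in WT, against 0.115%, 0.616% and 0.0934% of all genes. Set against WT, the p66KO arrays had 1 target 2-fold or more lower (Perp in thymus, against 4.78% of all genes) and 2 higher (Trp53inp1 and Sesn1 in thymus, against 12.7%). In p66KO heart, lung and liver 0 targets passed 2-fold lower, against 1.67%, 0.313% and 0.302% of all genes, and 0 passed 2-fold higher, against 0.181%, 0.341% and 0.0824%. The median difference of the 10 targets between p53KO and WT was −0.72 in lung, −0.50 in heart, −0.33 in liver and −0.26 in thymus, with medians over all genes between −0.01 and 0.07. For p66KO against WT the medians of the targets were −0.18 in lung, −0.52 in heart, −0.20 in liver and 0.31 in thymus.

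In heart, 8 of 10 targets lay below WT in p53KO and 8 of 10 in p66KO, where 47.3% and 50.4% of all genes did, and Bbc3 and Sesn2 lay above WT in both. A list of 13 glucocorticoid- and fasting-responsive genes was also lower in both, with median differences from WT of −0.74 in p53KO and −1.08 in p66KO heart, and of −0.65 in p53KO and −0.50 in p66KO liver. The part of this in the lower signals of Cdkn1a and other targets was not tested.

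The arrays of the 2 knock-outs were also set against each other, which leaves out the WT arrays. In lung all 10 targets were lower in p53KO than in p66KO on the probe sets used, with a median of −0.35, whereas 44.6% of all genes were lower. Bbc3 (−0.03) and Sesn2 (−0.01) were nearly level. Pmaip1, Perp and Trp53inp1 passed 2-fold there (2.93-fold, 2.14-fold and 2.01-fold lower), against 3.14% of all genes. The second probe sets of Trp53inp1 (0.80), Sesn2 (0.26) and Cdkn1a (0.10) were higher in p53KO than in p66KO lung. The other Ccng1 probe sets differed by −0.28 and 0.14, and those of Sesn1 by −1.92, −1.06 and 0.34. Of the marker lists, hepatocyte genes had a median difference of −2.77 between p53KO and p66KO lung (9 of 11 were 2-fold or more lower) and skeletal muscle genes one of −0.90. Of 13 thymocyte markers 4 were 2-fold or more lower, with Rag1 at 4.67 in p53KO and 7.22 in p66KO lung. The 18S control also differed between these 2 lung arrays. The part of it and of these cells in the lung differences was not tested. In thymus 9 of 10 targets were lower in p53KO than in p66KO, with a median of −0.57, against 52.2% of all genes. The thymus differences were −0.77 for Perp, −0.75 for Ccng1, −0.74 for Phlda3, −0.66 for Zmat3 and −0.65 for Bbc3, and 0 targets reached 2-fold, against 1.18% of all genes. In liver Cdkn1a alone passed (2.01-fold lower, against 0.11% of all genes), and 6 of 10 were lower, against 54.5% of all genes. In heart 5 of 10 were lower, against 46.1% of all genes, the median was −0.01 and 0 passed 2-fold, against 0.143% of all genes. No target was 2-fold higher in p53KO than in p66KO in any tissue, as were 0.616% of all genes in thymus, 0.143% in heart, 0.236% in lung and 0.104% in liver. Cell-division genes differed by a median of 0.24 and salivary gland markers by 0.02 between the p53KO and p66KO thymus, whereas skeletal muscle markers differed by 2.80 and cardiomyocyte markers by −1.95. The 18S control differed between these 2 thymus arrays too. Whether it or the muscle signal has a part in the thymus differences was not tested.

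**Figure D3:**
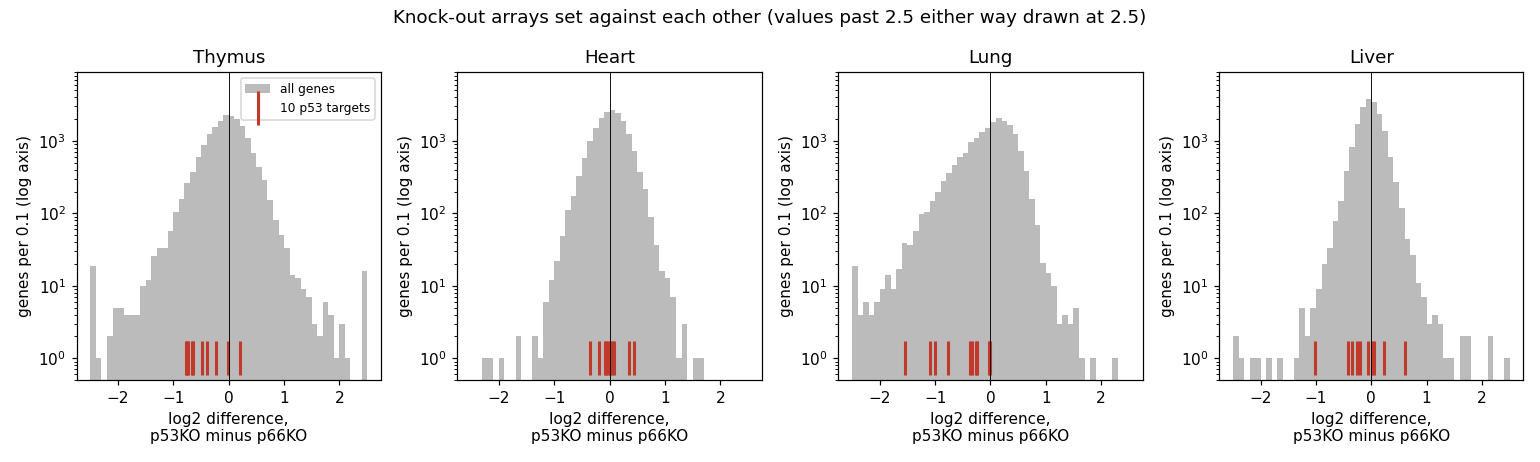
Distribution over all 18193 genes of the log2 difference between the p53KO and p66KO arrays of each tissue (grey, genes per bin on a log axis), with the 10 targets as red marks. The marks, from the probe sets used, lie left of 0 for 10 targets in lung and 9 in thymus, and around 0 in heart.

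Across the tissues, the genotypes were compared with limma, with tissue as a block, so that the 4 tissues of a genotype stood as its replicates. With all 12 arrays, 1 of 18193 genes was lower in p53KO than in WT at an adjusted p under 0.05 (0.0055%), the heat shock gene Hspa1b, and 0 of the 10 targets were. Without adjustment, 4 of the 10 had p under 0.05, all lower in p53KO, as had 6.13% of all genes. These were Ccng1 (−0.77, 95% interval −1.10 to −0.44, limma adjusted p = 0.186), Perp (−1.01, −1.53 to −0.50, limma adjusted p = 0.257), Cdkn1a (−0.82, −1.25 to −0.38, limma adjusted p = 0.272) and Zmat3 (−0.40, −0.74 to −0.06, limma adjusted p = 0.416). Ccng1, on the probe set used, ranked 38th of all genes by p. Trp53inp1, whose tissues differed in sign, averaged −0.60 with an interval of −1.46 to 0.27. For p66KO against WT 0 genes and 0 targets passed, with 717 genes and 0 targets under 0.05 without adjustment.

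The outcome turned on the WT thymus array. Without it, an alternative chosen after the data were seen, 736 genes were lower (4.05%) and 108 higher (0.594%) in p53KO than in WT, and 5 of the 10 targets were among the lower ones. Trp53inp1 differed by −1.15 (interval −1.54 to −0.76, limma adjusted p = 0.0108) and Cdkn1a by −1.01 (−1.36 to −0.67, limma adjusted p = 0.0108). Ccng1 followed at −0.81 (limma adjusted p = 0.0209), then Zmat3 at −0.55 (0.0357) and Perp at −0.76 (0.0365). The other 5 did not pass. With p66KO against WT, 6 genes were then lower (0.033%) and 0 of them were targets, although Trp53inp1 (−0.83) and Cdkn1a (−0.56) had intervals below 0. Leaving out thymus altogether, 3 targets passed in p53KO against WT (Cdkn1a, Ccng1 and Trp53inp1), where 2.01% of all genes were lower and 0.104% higher, and in p66KO against WT 0 targets did, against 0.0275% of all genes. Without the p53KO lung array, 0 genes and 0 targets passed by limma (1023 genes without adjustment). The Pmaip1 difference was −0.04 in that fit, which still held the p66KO and WT lung arrays.

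**Figure D4:**
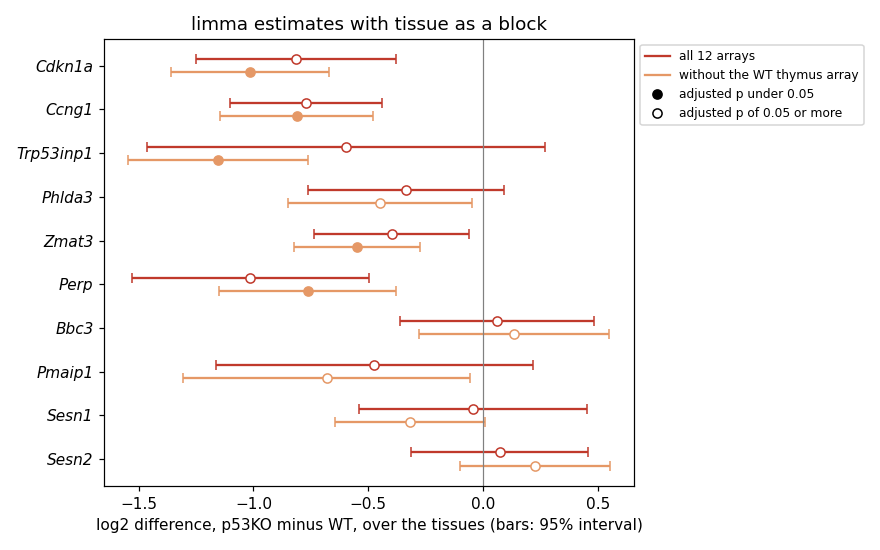
limma estimates of the log2 difference, p53KO minus WT, over the tissues (horizontal axis) with 95% intervals, with all 12 arrays (dark) and without the WT thymus array (light). Filled points have an adjusted p under 0.05; there are 0 with all arrays and 5 without the WT thymus array.

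The direct contrast of p53KO with p66KO over the tissues had 0 genes at a limma adjusted p under 0.05 (749 without adjustment), and again 0 without the WT thymus array (2353 without adjustment). With all 12 arrays, 4 targets were lower in p53KO at an unadjusted p under 0.05, with differences of −0.49 for Ccng1 (95% interval −0.82 to −0.16), −0.54 for Perp (−1.06 to −0.03), −0.46 for Cdkn1a (−0.89 to −0.02) and −0.40 for Zmat3 (−0.74 to −0.06), limma adjusted p = 0.937 for each. A lower level in p53KO than in p66KO mice was thus not established for any single target, although the Perp interval reached past 2-fold.

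Other p53 targets were taken from a longer list of 36 genes, of which 34 were measured (arrest, death, DNA repair, metabolism and feedback). None of the 34 passed in p53KO against WT with all 12 arrays, where Ei24 (−0.71) and Ddit4 (−0.64) were lower and Bid (0.49), which encodes a BH3-only protein, and Psrc1 (0.41) higher at an unadjusted limma p under 0.05. These are 4 of 34, and 10.3% of all genes had such a p. Ddit4, which encodes the mTORC1 inhibitor Redd1 and also responds to glucocorticoids, passed without the WT thymus array (−0.98, limma adjusted p = 0.0116). Its heart signal was 8.25 in p53KO, 8.32 in p66KO and 9.52 in WT. It was the only one of the 34 past 2-fold between p53KO and WT heart, where 2.08% of all genes were that much lower. In lung and liver 0 of the 34 differed 2-fold between p53KO and WT. Of all genes, 4.14% in lung and 0.418% in liver were that much lower, and 0.616% and 0.0934% higher. In thymus 3 were 2-fold or more lower in p53KO than in WT, as were 4.81% of all genes. These were the kinase gene Plk2 (−1.78), the growth arrest gene Gadd45a (−1.31) and Ei24 (−1.25). In p66KO thymus they differed from WT by −1.78, −1.04 and −0.50. Another 4 were 2-fold or more higher in p53KO thymus, as were 8.89% of all genes. They were led by the DNA damage sensor gene Ddb2 and the apoptosome scaffold gene Apaf1 (1.39 each) and the nuclear body gene Pml (1.27). In p66KO thymus these led genes differed from WT by 0.88, 1.76 and 1.13. The part of the WT thymus array in these differences was not tested. Mdm2, the feedback ubiquitin ligase, differed between p53KO and WT by −0.49 in lung, −0.58 in heart, −0.20 in liver and 0.82 in thymus. Between p66KO and WT it differed by 0.09, −0.65, 0.09 and 0.60 in that order.

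The level of most targets depended on the tissue. By a limma F test over the 4 tissues, with genotype as a block and 3 arrays per tissue, 8 of 10 passed (all but Bbc3, adjusted p = 0.088, and Sesn2, adjusted p = 0.819), as did 54.9% of all genes. Ccng1 averaged 12.63 ± 0.29 in heart, 10.57 ± 0.51 in lung, 10.42 ± 0.44 in thymus and 8.91 ± 0.42 in liver (SD, n = 3). Heart lay above and liver below the other tissues, and lung and thymus did not differ beyond their spread (limma adjusted p = 0.565). Trp53inp1 averaged 12.10 ± 0.71 in thymus, 10.28 ± 0.83 in lung, 9.80 ± 0.56 in liver and 7.45 ± 0.53 in heart, with lung and liver not separated (limma adjusted p = 0.48). Pmaip1 was above the rest in lung (6.68 ± 1.04), and thymus, heart and liver (5.09, 4.66 and 4.27) were not separated from their neighbours in this order.

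Cdkn1a ran from lung (9.72 ± 0.44) through heart (9.22) and liver (8.81) to thymus (8.61 ± 0.20). The ends of this order, lung and thymus, differed (limma adjusted p = 0.00448), and neighbours were not separated. Perp ran from liver (10.25) through heart (10.13) and thymus (9.43) to lung (8.95), with no neighbours separated. Phlda3 was highest in thymus (8.94) and lung (8.80) and lowest in liver (7.34). Zmat3 ran from lung (7.32) to liver (6.61) and Sesn1 from heart (10.04) to liver (8.32). In the WT arrays alone, Cdkn1a and Pmaip1 were highest in lung (10.20 and 7.48), Ccng1 in heart (12.96) and Trp53inp1 in thymus (11.28).

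The other probe sets of a gene did not always follow the one used. The second Cdkn1a probe set differed more, with 7.19 in p53KO, 7.36 in p66KO and 9.08 in WT heart. In lung it had 7.76 in p53KO, 7.67 in p66KO and 9.84 in WT, and in liver 6.77 in p53KO, 7.38 in p66KO and 8.75 in WT. On this probe set both knock-outs lay well below WT in the 3 tissues, and in thymus both were above it (7.36 in p53KO and 7.77 in p66KO, against 6.38 in WT). The second Trp53inp1 probe set was not lower in p53KO than in WT in any tissue (0.76 higher in lung), so the lower p53KO values of this gene rest on 1 of its 2 probe sets. The other 2 Ccng1 probe sets were lower in p53KO thymus, heart and liver and higher in lung (0.30 and 0.35). For Sesn1 in lung another probe set had 7.0 in p53KO, 8.92 in p66KO and 8.96 in WT, and one more had 7.20 in p53KO, 8.26 in p66KO and 8.04 in WT. For Sesn2 the second one was lower in all 4 tissues. Phlda3, Zmat3, Perp, Bbc3 and Pmaip1 have 1 probe set each.

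**Figure D5:**
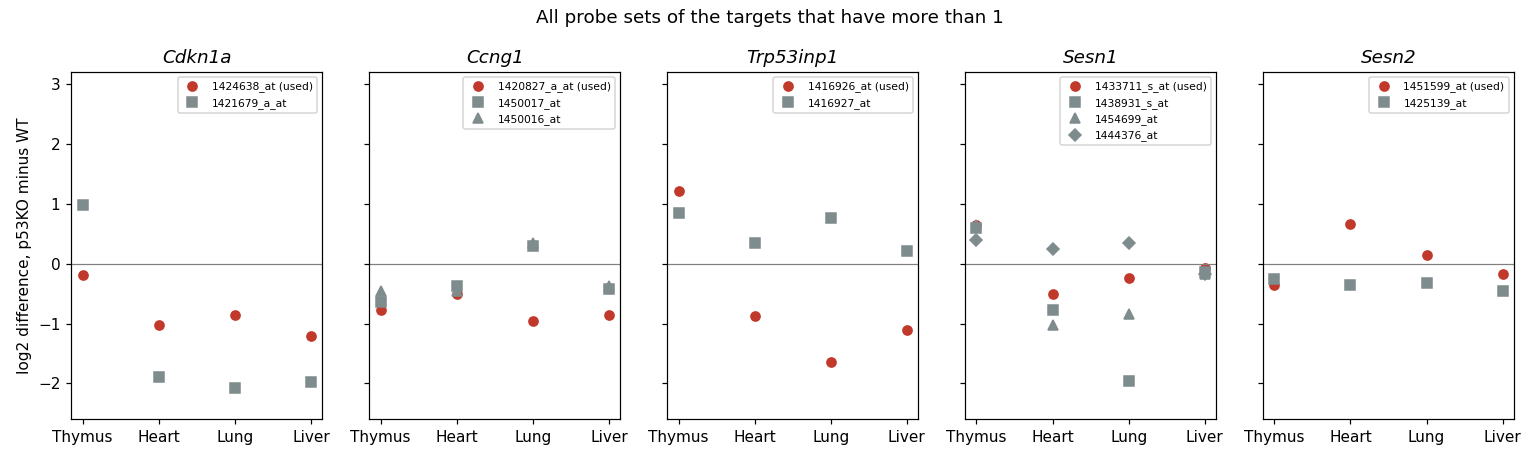
Log2 difference between the p53KO and WT arrays by tissue (vertical axis) for every probe set of the 5 targets with more than 1, the one used in red. The Cdkn1a probe sets share a direction in heart, lung and liver, whereas the Trp53inp1 probe sets part outside the thymus.

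The genes whose pattern over genotypes was most like that of Ccng1, after subtraction of each tissue's mean, were Nectin3 (Pearson r = 0.977), Tdrd7 (0.967), Pcmtd1 (0.964), Hspa13 (0.963) and Usp46 (0.962), over 12 arrays that share their RNA pools and normalization. Of the other targets, Perp (r = 0.837, ranked 264th of all genes) and Cdkn1a (r = 0.815, ranked 376th) were nearest. In thymus Tdrd7 had 6.40 in p53KO, 7.22 in p66KO and 7.25 in WT, and in lung 8.50 in p53KO, 9.16 in p66KO and 9.43 in WT.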

How the data were processed

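Total RNA of thymus, heart, lung and liver was measured on 12 Affymetrix Mouse Genome arrays, 1 per tissue and genotype. The authors deposited log2 signals per probe set, made with RMA in Partek 6.5 (background correction, quantile normalization across arrays and median polish). Array distributions are thereby drawn together and a global shift cannot be seen. The probe-set values were not fully equal in distribution, with array medians from 6.225 (p66KO thymus) to 6.416 (p66KO heart). Array means lay between 6.55 and 6.60, and precision is limited by the number of arrays. Groups came from the sample titles. Probe sets with 1 gene symbol (34945 of 45101) were used, and each gene took its probe set of highest mean. Probe sets with several symbols (932) or none here (9160) were left out.

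Within a tissue, differences of single arrays were counted at 2-fold, with no test. Across tissues, the 12 arrays entered 1 limma 3.58.1 model (R 4.3.3) that held genotype and a fixed tissue term (6 residual degrees of freedom), and p-values were adjusted by Benjamini-Hochberg over 18193 genes. The same fit with genotype as a block compared tissues. The tissues of a genotype may come from the same mice, which the labels do not say, so p-values measure the spread between these arrays. The fit was tested on simulated data. Python 3.11.15 was used for counts and figures. Named beside the 10 targets are other p53 targets past the limma threshold or 2-fold from WT in p53KO arrays (up to 3 per tissue and direction), and the 5 genes most correlated with the target of lowest p. Bid, Psrc1 and Mdm2 fall outside this rule and were named after their values were seen. The targets and lists were chosen with earlier results of these data known. Alternatives were another normalization, other probe-set rules, tissue as a random block and leaving out tissues or arrays. The gene of p53 itself is not reported here, and Bax and Gls2 of the longer list were not analysed here.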

Additional observations from a re-analysis of the deposited data

Results flagged for a closer look

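Trp53inp1 was flagged because, on the probe set used, its p53KO signal lay above WT in thymus and below WT in other tissues. The log2 difference, p53KO minus WT, was 1.22 in thymus, against −1.64 in lung and −1.10 in liver. Each value is 1 array against 1 array, and the difference between tissues was not tested. Set against the p66KO array, the thymus difference was −0.02. The second probe set did not change sign. It was higher in p53KO than in WT thymus (0.84), heart (0.35), lung (0.76) and liver (0.21).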

How the results depend on the processing

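With tissues or single arrays left out, the genes passing in p53KO against WT (1 with all arrays) ranged from 0 to 844 and the targets passing from 0 to 5, both highest without the WT thymus array. The genes passing in p66KO against WT ranged from 0 to 6. p53KO against WT gave 0 genes with only the 8 arrays compared, 0 after median centring and 5 with all probe sets of a gene averaged. Target and tissue pairs 2-fold or more lower in p53KO than in WT numbered 7. They were 4 with the p66KO array as reference, 14 at 1.5-fold and 3 at 3-fold. For p66KO the count was 1, and 3 with probe sets averaged, 8 at 1.5-fold and 0 at 3-fold. The share of all genes was not counted at 1.5-fold, at 3-fold or with probe sets averaged. The counts under these settings are therefore no result about the targets. Leaving out tissues or arrays turned small differences round. For p53KO against WT, Bbc3 ranged from −0.149 to 0.237, Pmaip1 from −0.719 to 0.0255, Sesn1 from −0.319 to 0.109 and Sesn2 from −0.125 to 0.224. For p66KO against WT, Zmat3 ranged from −0.191 to 0.0701, Pmaip1 from −0.231 to 0.109, Sesn1 from −0.16 to 0.398 and Sesn2 from −0.203 to 0.0883. For p53KO against p66KO, Phlda3 ranged from −0.253 to 0.138 and Bbc3 from −0.259 to 0.164. Repeated quantile normalization gave 0.00764 for Sesn1 in p53KO against WT, −0.0288 for Zmat3 in p66KO against WT and 0.0359 for Phlda3 in p53KO against p66KO. Cyclic loess gave −0.00259 for Sesn2 in p53KO against WT and −0.0345 for Zmat3 in p66KO against WT. Averaging probe sets gave −0.138 for Sesn2 in p53KO against WT and 0.0185 for Trp53inp1 in p66KO against WT. Trp53inp1 in p53KO thymus was −0.0166 from the p66KO array. The causes were not tested. No paired analysis was possible because the labels give no replicate numbers, apart from the pairing by tissue that the comparison across tissues already holds. With 1 pool per array, differences within a tissue have no error.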
